A study of Mus musculus with 4 samples.

Results

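DNA methylation was examined around 8 genes of the imprinted clusters in which the control region is methylated on the chromosome inherited from the father: H19, Igf2, Dlk1, Meg3, Rtl1, Rian, Mirg and Rasgrf1. They were chosen by name. For each gene, all CpGs from 20 kb before its start to 20 kb after its end in the RefSeq annotation of mm10 were taken, and reads were pooled per library over this window and over 1 kb bins within it. The 8 windows were among 49190 gene windows with at least 50 CpGs on the autosomes and X, and held 6248 distinct CpGs of 20677079. H19 and Igf2 lie together on chromosome 7, Dlk1, Meg3, Rtl1, Rian and Mirg on chromosome 12 and Rasgrf1 on chromosome 9. The windows of Meg3, Rtl1 and Rian overlap, so these 3 genes share CpGs.

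All 4 libraries were whole-genome bisulfite libraries of mouse embryonic stem cells (mESC) of the genotype Ogt fl/fl, in which the gene for O-GlcNAc transferase is flanked by sites for Cre recombinase. In 2 libraries (iKO, for inducible knockout) the cells had been kept with 4-hydroxytamoxifen (4-OHT) for 6 days and sorted as YFP-positive cells. In the other 2 libraries (control) the same genotype had been grown without 4-OHT. All cells grew on feeder fibroblasts, which the labels say were removed by sorting. The groups also differ by the drug itself and by the YFP gate. The labels tie CD90.2 to the stem cells and CD326 to leaving out the feeders, whereas CD90.2 more usually marks fibroblasts and CD326 epithelial and stem cells, so which cells the sort kept could not be settled here. The labels do not say whether replicates came from separate cultures or clones, so p-values rest on the spread between these libraries, which may be technical. For whole gene windows, the model used below took the same estimate of this spread (dispersion) for all windows. The spread within a given window therefore did not enter its model p-value. Bisulfite data hold no RNA, so the cell type could not be checked by markers.

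The libraries held 79929994, 70974957, 68488024 and 64273609 CpG reads, in the order iKO replicate 1, iKO replicate 2, control replicate 1, control replicate 2, which is used for every group of 4 values in the text. The mean depth was between 3.35 and 4.04 reads per CpG, and the iKO libraries were the deeper ones. The member windows together held 21705, 19128, 18267 and 17336 reads. Over all CpGs of the autosomes and X, 65.5%, 63.3%, 70.3% and 73.8% of reads were methylated, so every comparison of the clusters stands against a lower level in both iKO libraries across the genome. Read depth over the whole of Ogt relative to the X chromosome was 1.25, 1.20, 1.28 and 1.19. These values overlap, and the position of the floxed part was not used here, so they do not check the labels.

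Imprinted genes are expressed from only 1 of the parental copies, and the choice is carried by DNA methylation that is laid down in the egg or the sperm and kept after fertilisation. Most such marks come from the egg. The control regions of H19-Igf2, Dlk1-Meg3 and Rasgrf1 are the well-known ones methylated in sperm, and in ordinary somatic cells their level lies between full and no methylation because the maternal copy is bare. Bisulfite treatment reads 5-methylcytosine and 5-hydroxymethylcytosine alike, and the pooled counts do not tell the parental copies apart. OGT adds the sugar N-acetylglucosamine to proteins and binds the TET enzymes, which oxidise 5-methylcytosine, and the submitters' design asks how its loss changes both marks.

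Promoter sequences were available from RefSeq (GRCm38.p6, 250 bases before to 50 bases after a start) for 6 of the 8 genes. The following 4 are shown because their levels were low (Igf2, Rasgrf1), intermediate (Meg3) and high (Mirg). CpGs are in capitals, and every listed CpG falls on a CG of the sequence.
Meg3, chr12:109540746-109541045, plus strand: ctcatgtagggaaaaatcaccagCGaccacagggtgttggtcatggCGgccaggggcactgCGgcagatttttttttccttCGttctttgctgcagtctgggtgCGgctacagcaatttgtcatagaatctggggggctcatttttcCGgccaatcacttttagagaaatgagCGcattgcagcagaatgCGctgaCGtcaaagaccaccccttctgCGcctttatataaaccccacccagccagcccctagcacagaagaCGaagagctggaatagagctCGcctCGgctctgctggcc
Igf2, chr7:142658755-142659054, minus strand: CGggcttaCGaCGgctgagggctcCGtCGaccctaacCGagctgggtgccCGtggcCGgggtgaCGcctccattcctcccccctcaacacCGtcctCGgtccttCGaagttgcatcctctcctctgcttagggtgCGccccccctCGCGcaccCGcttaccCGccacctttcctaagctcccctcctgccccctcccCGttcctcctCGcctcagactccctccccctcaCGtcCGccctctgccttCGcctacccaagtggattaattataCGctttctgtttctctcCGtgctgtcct
Rasgrf1, chr9:89909525-89909824, plus strand: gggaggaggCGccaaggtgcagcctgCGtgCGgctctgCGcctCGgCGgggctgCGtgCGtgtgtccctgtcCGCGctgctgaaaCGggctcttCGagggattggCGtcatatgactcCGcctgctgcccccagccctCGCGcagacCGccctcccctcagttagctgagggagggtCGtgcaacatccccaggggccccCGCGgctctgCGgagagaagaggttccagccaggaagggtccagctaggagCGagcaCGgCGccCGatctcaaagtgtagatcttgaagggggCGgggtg
Mirg, chr12:109734731-109735030, plus strand: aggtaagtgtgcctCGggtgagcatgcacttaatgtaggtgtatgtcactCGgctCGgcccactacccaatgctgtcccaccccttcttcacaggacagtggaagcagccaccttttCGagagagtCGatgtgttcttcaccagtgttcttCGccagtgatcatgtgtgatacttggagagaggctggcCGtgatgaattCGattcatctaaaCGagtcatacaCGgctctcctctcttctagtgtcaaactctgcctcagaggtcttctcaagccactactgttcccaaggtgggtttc

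The Igf2 and Rasgrf1 promoters shown were dense in CpGs, with 24 and 26, and nearly bare of methylation. RefSeq gives 4 promoters for Igf2, and the one shown is the densest in CpGs. The outermost, at chr7:142666767-142667066, has 2 CpGs and 60.0%, 100%, 0% and 71.4% on only 5, 2, 4 and 7 reads. At the 300 bases shown of Igf2, 1.09%, 0%, 1.89% and 2.53% of 92, 23, 53 and 79 reads were methylated. At those of Rasgrf1 all 47, 31, 59 and 33 reads were unmethylated. If these were independent, they would allow a level of up to 5.08% to 9.68% in a library. A read counts once at every CpG it covers, so the true limits are wider. No gain or loss at either promoter was detectable at this depth.

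The Meg3 promoter had 13 CpGs and levels of 36.4%, 5.26%, 23.5% and 20.7%, on 33, 19, 51 and 58 reads. Its 2 iKO libraries were the highest and the lowest, so the groups overlapped. The Mirg promoter lay at the other extreme, with 91.9%, 88.0%, 86.8% and 82.1% over 10 CpGs. Both iKO libraries were above both controls there, by 5.45 points on average (exact permutation p = 0.33, the smallest that 2 against 2 libraries allow). The hexamer TGCCGC, the methylated sequence read by the imprint guardian ZFP57, was searched on both strands and stood once in the Meg3 promoter and not in the other 3 sequences shown. Of the promoters not shown, the hexamer was in that of Igf2 at chr7:142661222-142661521, with low levels of 14.8%, 3.45%, 7.69% and 5.00%, and not in the remaining ones. It was present in 3813 of 32851 RefSeq promoters of this length, or 11.6%.

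A second set of sequences belongs to the microRNA genes that lie opposite Rtl1, a retrotransposon-derived gene expressed from the paternal copy. The maternal transcript opposite Rtl1 carries microRNAs that match Rtl1 perfectly and cleave its RNA. They are shown because the only 1 kb bin of the member windows that passed the test, described further on, holds 1 of them. The mature sequences from RefSeq are given with the seed (bases 2 to 8) in capitals, and no 2 of these share a seed.
mmu-miR-431-5p: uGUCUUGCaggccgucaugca
mmu-miR-431-3p: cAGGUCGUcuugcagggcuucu
mmu-miR-433-5p: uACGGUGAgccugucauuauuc
mmu-miR-433-3p: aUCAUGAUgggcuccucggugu
mmu-miR-127-5p: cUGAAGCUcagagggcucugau
mmu-miR-127-3p: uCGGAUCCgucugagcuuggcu
mmu-miR-434-5p: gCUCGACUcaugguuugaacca
mmu-miR-434-3p: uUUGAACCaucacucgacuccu
mmu-miR-432: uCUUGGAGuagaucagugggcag
mmu-miR-136-5p: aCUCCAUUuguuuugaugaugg
mmu-miR-136-3p: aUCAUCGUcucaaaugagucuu

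Across whole windows, methylation was lower in iKO around all 8 genes, with differences from -9.95 to -3.22 percentage points (median -7.05). The median over all 49190 gene windows was -7.67. In 7 of the 8 windows both iKO libraries were below both controls, and this held for 92.4% of all gene windows. Adjusted p was under 0.05 in 7 of 8 windows by the quasi-binomial model (limma-moderated, Benjamini-Hochberg over all gene windows), as in 61.7% of all windows. With a difference of at least 10 points required as well, 0 of 8 were called, against 14.4% of all windows (7 of 8 had an unadjusted p under 0.05, against 68.9% of all windows, and limma on logit levels also called 0). Tested against the genome-wide median difference in place of 0, 0 of 8 had an adjusted p under 0.05 by the same model, and of all gene windows 0.232% had one, so 8 windows would seldom hold any.

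H19, a noncoding RNA expressed from the maternal copy (chr7:142575530-142578146), had 63.5%, 59.4%, 67.7% and 73.2% methylated reads over 500 CpGs of its window. Both iKO libraries were below both controls. The means were 61.4% ± 2.90 in iKO and 70.5% ± 3.88 in control (SD, n = 2 each), a difference of -9.04 points (limma-moderated quasi-binomial adjusted p = 0.0180). With 10 kb flanks it was -5.94 points (adjusted p = 0.175), and over the gene body alone -16.1 points (0.112).

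Igf2, the growth factor gene expressed from the paternal copy (chr7:142650768-142666816), had the lowest window level of the members, at 45.3%, 41.8%, 41.6% and 51.9%. It was the 1 member whose groups overlapped, since control replicate 1 lay below both iKO libraries. The difference was -3.22 points (adjusted p = 0.379, same model), less negative than in 95.4% of all gene windows. Without control replicate 1 it was -8.33 points, and without control replicate 2 it was 1.90 points.

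Dlk1, which encodes a membrane protein of the Notch ligand family and is expressed from the paternal copy (chr12:109452485-109463336), had 54.7%, 57.0%, 62.6% and 62.5%. The groups were apart, by -6.69 points (limma-moderated quasi-binomial adjusted p = 0.0309). Meg3, the noncoding RNA at the head of the maternal transcripts (chr12:109540996-109571729), had 66.0%, 61.3%, 71.0% and 76.2%. Its difference of -9.95 points was the largest of the 8 (adjusted p = 0.000116, same model) and just under the 10-point limit.

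The remaining chromosome 12 genes had higher levels. Rtl1 (chr12:109564900-109604418) had 70.4%, 67.5%, 76.9% and 79.3%, a difference of -9.12 points (limma-moderated quasi-binomial adjusted p = 0.000129). Rian, a maternal host transcript of small nucleolar RNAs and microRNAs (chr12:109603945-109661716), had 72.1%, 70.2%, 77.6% and 79.5%, a difference of -7.40 points (adjusted p = 0.000952). Mirg, a maternal host transcript of a microRNA cluster (chr12:109734981-109749458), had the highest window levels of the members, at 75.1%, 72.6%, 78.0% and 83.1%, and a difference of -6.69 points (adjusted p = 0.0153). In all 3 windows both iKO libraries lay below both controls.

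Rasgrf1, a guanine nucleotide exchange factor for Ras expressed from the paternal copy (chr9:89909508-90026979), had 70.4%, 66.3%, 72.0% and 75.4% over 1560 CpGs. The groups were apart by -5.38 points (limma-moderated quasi-binomial adjusted p = 0.00728). Leaving out iKO replicate 2 left an adjusted p under 0.05 for 1 of the 8 windows (14.2% of all gene windows), and leaving out control replicate 2 left 3 (32.0% of all). By limma on logit levels 5 of the 8 had an adjusted p under 0.05 (68.9% of all), and Dlk1 (0.0781) and Rasgrf1 (0.0943) did not. The Rasgrf1 difference was -3.36 points without iKO replicate 2, and the Mirg difference -4.12 points without control replicate 2.

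**Figure D1:**
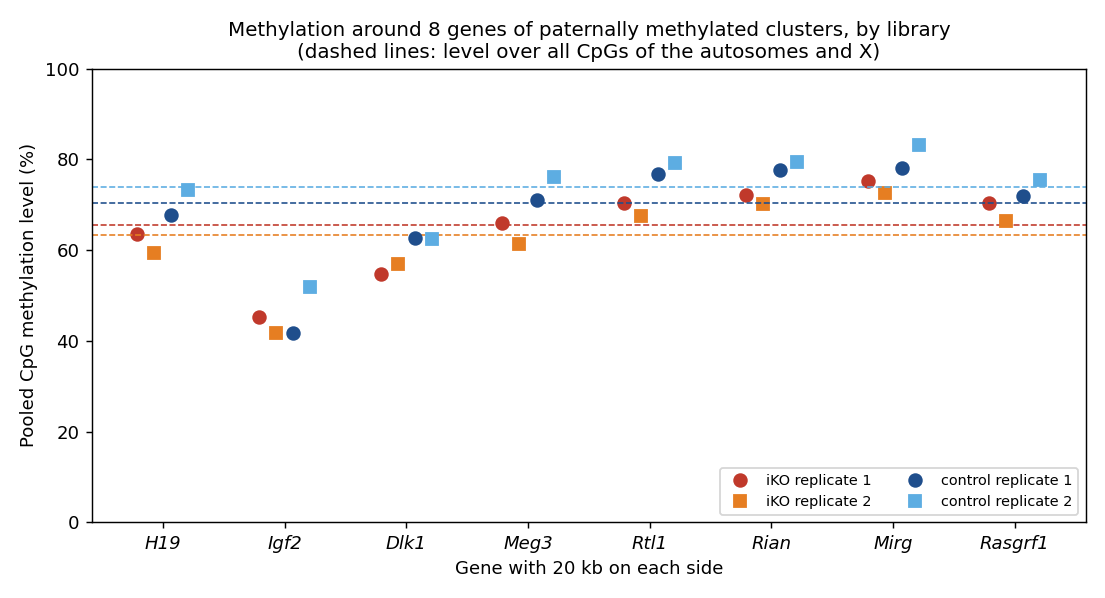
Share of methylated reads (%, y axis) over each gene with 20 kb on each side (x axis), 1 point per library. Dashed lines give the level of the same library over all CpGs of the autosomes and X. Both iKO libraries lie below both controls in 7 of 8 windows, and in the Igf2 window control replicate 1 (41.6%) is the lowest point.

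The body of H19 had 46.3%, 57.1%, 72.3% and 63.3% (difference -16.1 points), and the 20 kb downstream of it 68.6%, 59.8%, 75.8% and 80.6% (-14.0 points). The 20 kb upstream of H19, which holds its control region, had 65.5%, 59.4%, 59.3% and 68.8%, and the groups overlapped (-1.59 points). The body of Igf2 also overlapped, at 22.2%, 19.9%, 18.5% and 24.4% (-0.39 points). The exact permutation p of the first 2 was 0.33, the smallest possible, and that of the last 2 was 1.

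In the body of Meg3 the levels were 65.7%, 59.9%, 72.8% and 77.9% (-12.5 points, groups apart). In the body of Rasgrf1 they were 71.4%, 67.8%, 71.0% and 75.7% (-3.73 points), and the groups overlapped. The 20 kb upstream of Rasgrf1 had 50.7%, 46.0%, 63.7% and 57.2% (-12.1 points, groups apart). Of the 24 flanks and bodies of the 8 genes, the groups overlapped in 4 (16.7%), namely upstream of H19, in and downstream of Igf2 and in the Rasgrf1 body. Over all gene bodies with at least 50 CpGs they overlapped in 20.9%. That share holds no flanks, and some of the 24 stretches share bases, so the comparison is only a rough one.

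The control regions carry the imprint itself. Their borders were not in the sources used here, so each was placed by distance from the RefSeq start of its gene, and the stretch taken may hold more or less than the imprinted region. In the control libraries the 3 regions taken here had levels from 26.0% to 68.9%, and reads from the paternal and maternal copies could not be separated. The H19 control region binds the insulator protein CTCF on the unmethylated maternal copy, which keeps enhancers from Igf2, and was taken as the 2 kb at chr7:142580146-142582146 with 60 CpGs. Its levels were 55.9% (95% Wilson interval 46.9 to 64.6), 37.9% (30.8 to 45.6), 26.0% (19.2 to 34.1) and 43.6% (36.3 to 51.3), on 118, 161, 131 and 165 reads. The highest and the lowest library were iKO replicate 1 and control replicate 1, and iKO replicate 2 lay between the 2 controls. The means, 46.9% ± 12.8 in iKO and 34.8% ± 12.5 in control, differed by 12.1 points in the direction opposite to the window (exact permutation p = 0.667, n = 2 each).

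Relative to the rest of the H19 window, the control region was lower by a smaller margin in both iKO libraries. The control region minus the rest was -8.17, -24.3, -46.4 and -33.7 points. Both iKO values were above both controls, with a difference of 23.8 points (pooled SD 10.3, exact permutation p = 0.33). The rest of the window had 64.1%, 62.2%, 72.4% and 77.3%, so part of this difference came from its lower level in iKO. On the same measure the Rasgrf1 start, nearly bare in every library, was also higher in iKO, by 6.22 points with the groups apart. For the H19 control region, leaving out single libraries gave 15.8 to 31.9 points against the rest of the window, and 3.09 to 21.1 points for its level alone.

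Of the 35 bins tested around H19, 33 (94.3%) were lower in iKO, against 79.4% of all bins, and 2 had both iKO libraries above both controls. Both of these lay in the control region. In chr7:142580001-142581000, 37 CpGs had 60.3%, 65.0%, 46.2% and 37.5%, and both iKO libraries were above both controls by 20.8 points. This was the largest increase among the H19 bins with at least 5 CpGs and 20 reads in every library. Its adjusted p was 0.182 against no difference and 0.0294 against the genome-wide median difference, which is below 0 (limma-moderated quasi-binomial model, all 1 kb bins). The test against the median takes the same drop in points for bins of every level. The call against the median is 1 of 2 in the member windows, against 0.0592% of all 1 kb bins (0.0177% above the median and 0.0415% below it).

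The bin beyond it, chr7:142581001-142582000, had 44.7%, 34.9%, 23.3% and 26.5%, again with both iKO libraries above both controls. In chr7:142582001-142583000 iKO replicate 2 lay apart from the other 3 libraries, at 24.6% against 72.3%, 62.1% and 86.5%. Pooled in 2 kb, chr7:142580001-142582000 had 54.2%, 51.7%, 36.0% and 32.7% over 59 CpGs, and was called higher in iKO by 18.6 points (adjusted p = 0.0381, same model on 2 kb bins). Of all 2 kb bins tested, 0.00718% were called higher. The call was kept against the genome-wide median difference (adjusted p = 0.000594). It was lost with a replicate block (0.0600), where 1.22% of all 2 kb bins were called. It was also lost without each single library (0.188 to 0.458) and with limma on logit levels (0.403), but without a library only 1 to 32 of all 2 kb bins were called and with limma 0. This 2 kb bin and the control region as taken above share most of their bases, yet the groups were apart in the bin and overlapped in the region.

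**Figure D2:**
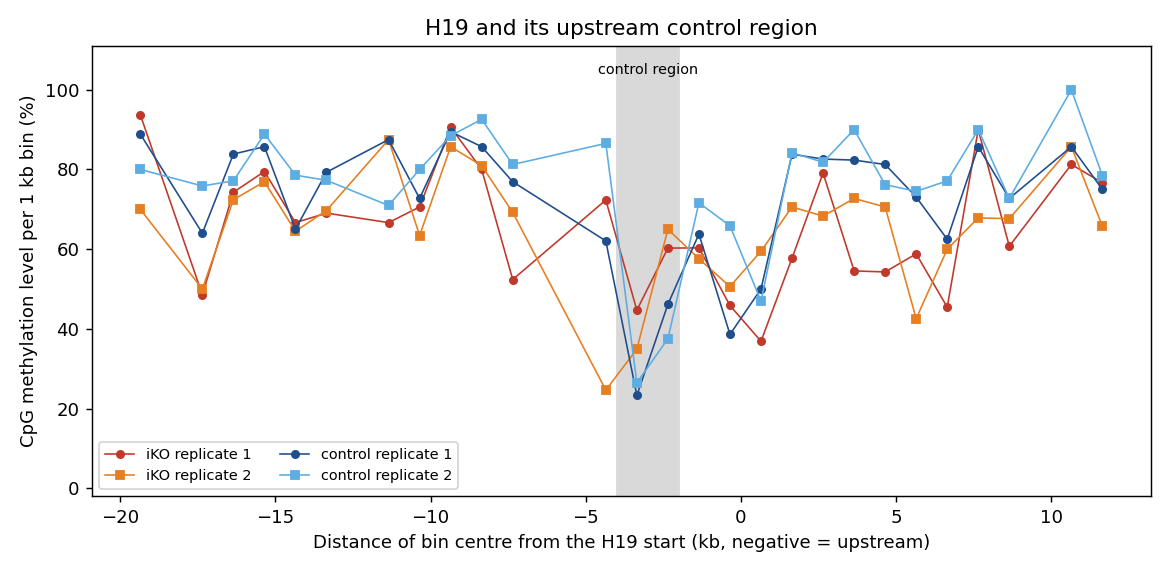
CpG methylation level (%) per 1 kb bin against the distance of the bin centre from the H19 start (kb, negative is upstream), 1 line per library, with the control region shaded. Lines also span bins that were not tested. In the 2 bins inside the shaded region both iKO lines lie above both control lines (60.3% and 65.0% against 46.2% and 37.5% in the bin nearer to H19).

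The control region of Dlk1-Meg3, the intergenic region called IG-DMR, lies before Meg3 and silences the maternal transcripts where it is methylated. It was taken as chr12:109524996-109530996 with 149 CpGs and had 55.2% (50.9 to 59.4), 49.5% (45.5 to 53.5), 55.5% (50.2 to 60.6) and 65.0% (60.1 to 69.6), on 518, 604, 348 and 380 reads. iKO replicate 1 and control replicate 1 were almost equal, so the groups were only just apart. The means of 52.4% ± 4.04 and 60.2% ± 6.75 differed by -7.87 points (exact permutation p = 0.33), and by -3.10 points without control replicate 2 and -12.6 points without control replicate 1. Relative to the rest of the Meg3 window the values were -12.6, -14.6, -17.6 and -12.8 points, and the groups overlapped (difference 1.59 points, exact permutation p = 0.667). This difference ran from -0.81 to 4.00 points with single libraries left out.

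The 2 controls were far apart in some bins of the IG-DMR and close in others. In chr12:109528001-109529000 the levels were 40.5%, 36.4%, 2.33% and 71.4%, so the 2 controls were the lowest and the highest library. This bin had 84, 217, 43 and 42 reads over 40 CpGs. The 2 controls had about as many reads as CpGs, so few fragments set their levels, and the parental copies of these were not known. In the bin after it they were 27.4%, 29.8%, 41.0% and 52.8%, and in chr12:109530001-109531000 they were 56.2%, 54.8%, 67.3% and 67.1%, with both iKO libraries below both controls in each. Just past the region, chr12:109531001-109532000 had 44.1%, 14.3%, 71.9% and 88.9% on 34, 21, 32 and 27 reads over 13 CpGs. This difference of -51.2 points was the largest of the Meg3 bins that met the limits for naming, with an adjusted p of 0.0937 by the limma-moderated quasi-binomial model.

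The region around the Meg3 start (chr12:109539496-109541996, 87 CpGs) gains its methylation on the paternal copy after fertilisation. It had 46.3%, 32.6%, 40.8% and 59.3%, and the groups overlapped (-10.6 points, exact permutation p = 0.667). With single libraries left out the difference ran from -1.35 points (without control replicate 2) to -19.8 points (without control replicate 1).

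Rasgrf1 has its control region further upstream, with a repeat array that is needed to set the paternal mark. It was taken as chr9:89876508-89882508 with 125 CpGs, which lies outside the 20 kb window. The levels were 53.2% (48.4 to 58.1), 53.0% (47.4 to 58.6), 68.9% (64.0 to 73.4) and 68.4% (63.3 to 73.1), on 400, 300, 376 and 345 reads. The 2 iKO libraries were almost equal, as were the 2 controls, and their Wilson intervals did not overlap between the groups. The means were 53.1% ± 0.177 and 68.6% ± 0.337, a difference of -15.5 points (exact permutation p = 0.33, the smallest possible).

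In all 4 libraries the region lay below the Rasgrf1 window, which does not hold it. The region minus the window was -17.1, -13.3, -3.10 and -7.03 points, a difference of -10.1 points with the groups apart (exact permutation p = 0.33). The nearest stretch measured, the 20 kb upstream of Rasgrf1, was at 50.7% and 46.0% in iKO, below the region, and had a like difference of -12.1 points, so the lower level in iKO was not limited to the region. Over the few CpGs with at least 5 reads in every library the level still differed, by -12.0 points, while the difference from the window was -0.33 points. Wilson intervals cover counting error only, since neighbouring CpGs share fragments and reads carry no molecular identifiers.

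**Figure D3:**
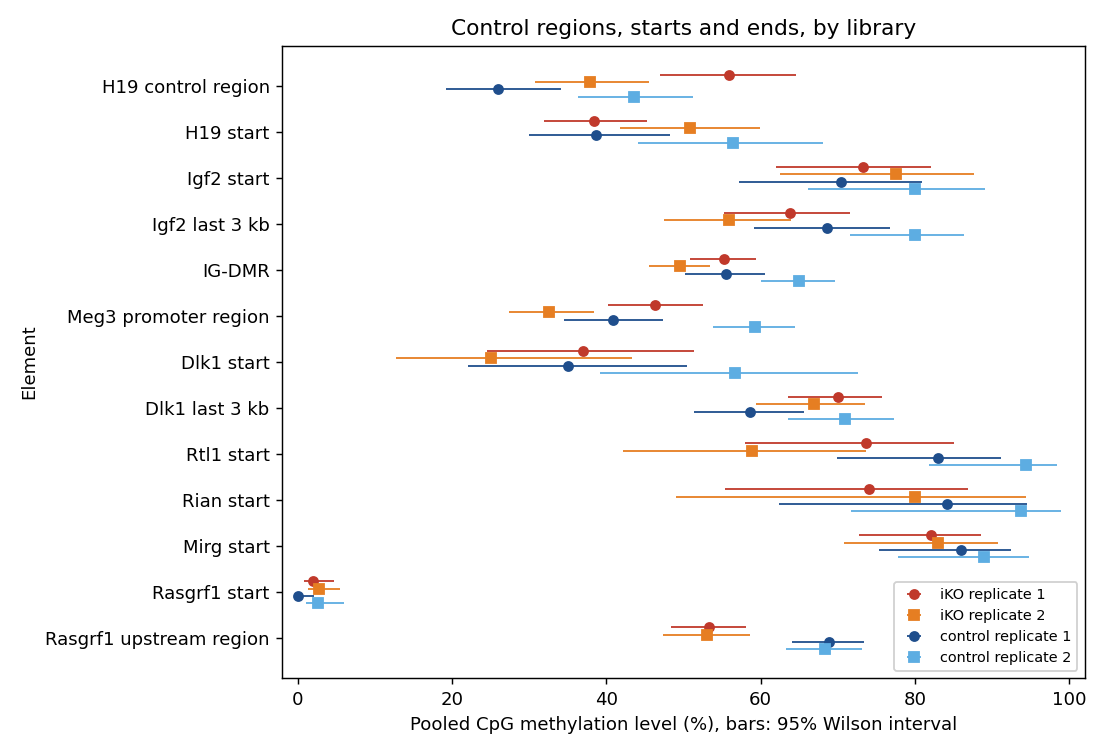
Share of methylated reads (%, x axis) in each control region, gene start and gene end (y axis), 1 point per library with its 95% Wilson interval. The Rasgrf1 upstream region shows both iKO libraries (53.2% and 53.0%) apart from both controls (68.9% and 68.4%), while at the H19 control region the groups overlap.

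At the starts of the genes (1 kb before to 0.5 kb inside), the order of levels was wide. The Rasgrf1 start had 2.02%, 2.70%, 0% and 2.60% over 108 CpGs. There 0 of 176 reads would allow a level of up to 1.70% if neighbouring CpGs were read independently, which they were not. The H19 start had 38.4%, 50.9%, 38.7% and 56.5%, and the Dlk1 start 37.0%, 25.0%, 35.0% and 56.7%. In all 3 the groups overlapped.

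The Igf2 start, at the outermost RefSeq transcript, had 73.2%, 77.5%, 70.4% and 80.0%, again with overlap, while the CpG-rich bins inside the gene at chr7:142658001-142661000 were at 0% to 3.13% in every library. RefSeq lists a predicted transcript of Rtl1 beside the curated one, and which of them sets the start used here is not known, so the Rtl1 start may not be that of the main transcript and its body may be drawn too long. Both iKO libraries were below both controls at the starts of Rtl1, Rian and Mirg, with 73.7%, 58.8%, 83.0% and 94.4% at Rtl1 (-22.5 points), 74.1%, 80.0%, 84.2% and 93.8% at Rian (-11.9 points) and 82.0%, 83.0%, 85.9% and 88.9% at Mirg (-4.89 points). The exact permutation p of each was 0.33, and the Rian start rests on 7 CpGs and was at -7.17 points without control replicate 2. The stretches taken at Rtl1 (chr12:109603918-109605418) and Rian (chr12:109602945-109604445) overlap, so they are not separate observations. Of all 1 kb bins, which are shorter than these stretches, 40.5% had both iKO libraries below both controls.

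The last 3 kb of Igf2 and of Dlk1 hold secondary regions that are more methylated on the paternal copy. In Igf2 they had 63.8%, 55.9%, 68.6% and 80.0%, with both iKO libraries lower (-14.4 points). In Dlk1 they had 70.0%, 66.9%, 58.7% and 70.9%, and the groups overlapped (3.65 points). Set against the rest of their windows, the Igf2 end was lower in iKO by -11.9 points and the Dlk1 end higher by 11.3 points, each with the groups apart (exact permutation p = 0.33). Without control replicate 1, iKO minus control was 4.55 points for the Dlk1 end against its window and -2.48 points for its level. Without control replicate 2 these were 18.0 and 9.77 points. The level of the Igf2 end differed by -8.76 points without control replicate 2 and by -9.27 points as an unweighted mean over CpGs. Against its window it was then -6.50 points, and -7.39 points when only CpGs read in all 4 libraries were used.

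In bins of 1 kb, 446 of the member windows had at least 3 CpGs and 10 reads in every library, of 1737159 in the genome. Methylation was lower in iKO in 355 of them, or 79.6%, against 79.4% of all bins, and the median difference was -7.58 points against -7.82. Both iKO libraries were below both controls in 183 bins (41.0%, against 40.5% of all bins) and above both in 21 (4.71%, against 4.21%). These shares were near those of the whole genome. An unadjusted p under 0.05 was reached by 48 bins, 5 of them higher in iKO, against 13.2% of all bins for lower and 0.292% for higher. Those 5, named after their values were seen, were 2 before Dlk1 (27.8 and 20.9 points), 1 in the H19 control region (20.8), 1 at Mir341 (19.4) and 1 in Mirg (17.0), and the smallest adjusted p among them was 0.182 by the limma-moderated quasi-binomial model. Only 1 bin was called by the limma-moderated quasi-binomial model, 0.224% of the 446 against 0.102% of all 1 kb bins, and a single bin does not set the clusters apart from the genome.

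The members differed in their bin medians. Rtl1 had the lowest, at -11.2 points over 71 bins, of which 42 had both iKO libraries below both controls, against 40.5% of all bins. H19, Meg3, Dlk1 and Rian followed with medians between -8.77 and -8.45 points over 35 to 92 bins. Rasgrf1 (-5.98 points, 127 bins), Mirg (-5.70, 49 bins) and Igf2 (-4.49, 41 bins) had the medians nearest to 0. The bins of Rtl1 are in part those of Meg3 and Rian, and no test was made between members.

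**Figure D4:**
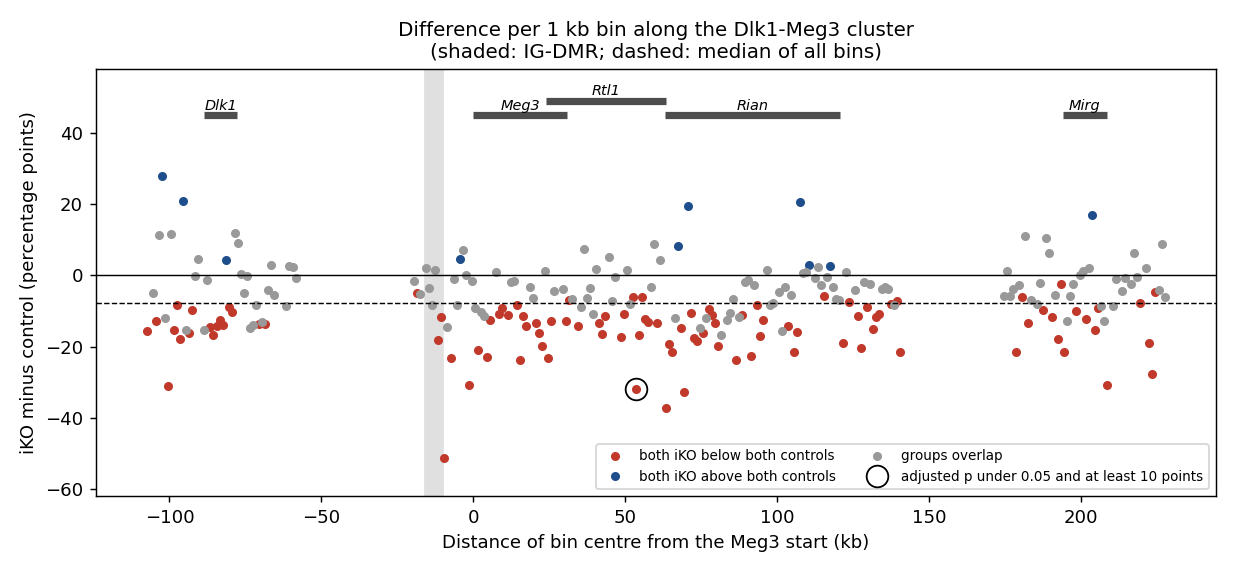
Difference in methylation, iKO minus control (percentage points, y axis), of each 1 kb bin in the windows of the chromosome 12 genes, against distance from the Meg3 start (kb, x axis). Red points are bins with both iKO libraries below both controls, blue points the reverse and grey points bins where the groups overlap, the dashed line is the median of all bins in the genome (-7.82 points), and the circle marks the called bin in Rtl1 (-31.8 points).

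The called bin was chr12:109594001-109595000 in the body of Rtl1, with 29 CpGs, and it holds the hairpin of Mir434. The levels were 63.4%, 63.8%, 93.9% and 97.0% on 82, 58, 82 and 33 reads. The 2 iKO libraries were almost equal, and both lay below both controls. Means of 63.6% ± 0.268 and 95.4% ± 2.17 differed by -31.8 points (adjusted p = 0.0291, limma-moderated quasi-binomial model with Benjamini-Hochberg adjustment over all 1 kb bins), and the bin was also called against the genome-wide median difference (adjusted p = 0.0467).

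The size of this difference depended little on any library, at -33.4 to -30.3 points with each left out. Over 12 alternatives the adjusted p ran from 0.0294 to 0.732 and was under 0.05 in 2. In 7 of the others (each library left out, limma on logit levels, the replicate block and no read minimum) 0 bins of the whole genome were called, so the loss there was not particular to this bin. It was also lost when only CpGs read in all 4 libraries were used, with thinned reads and with at least 20 reads, where 4, 437 and 15 bins of the genome were called. In 2 kb bins the bin at the same start (64.9%, 61.2%, 86.8% and 87.9%, a difference of -24.3 points) had an adjusted p of 0.00169, and 0.00313 with a replicate block. That call was lost against the genome-wide median difference (0.109), and, as for the H19 bin, without each single library (adjusted p 0.153 to 0.385) and with limma on logit levels (0.381).

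The microRNA genes opposite Rtl1 were not alike in this respect. Around each hairpin (500 bases on each side) Mir431, Mir433 and Mir127 had levels over 70% in every library. They were 76.6%, 79.4%, 82.7% and 92.5% at Mir431 and 85.3%, 74.4%, 85.7% and 89.8% at Mir433, with both iKO libraries lower at each. At Mir127 they were 78.5%, 89.7%, 81.3% and 95.6%, and the groups overlapped.

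The 3 hairpins at the other end of the row lay lower in iKO by more. The surroundings of Mir434 hold the same CpGs as the called bin. Those of Mir432 had 51.9%, 59.2%, 80.8% and 88.2% (-29.0 points), and those of Mir136 had 67.4%, 57.4%, 73.9% and 88.2% (-18.7 points). These 3 stretches overlap, so they are not separate observations, and their differences were described without a test.

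**Figure D5:**
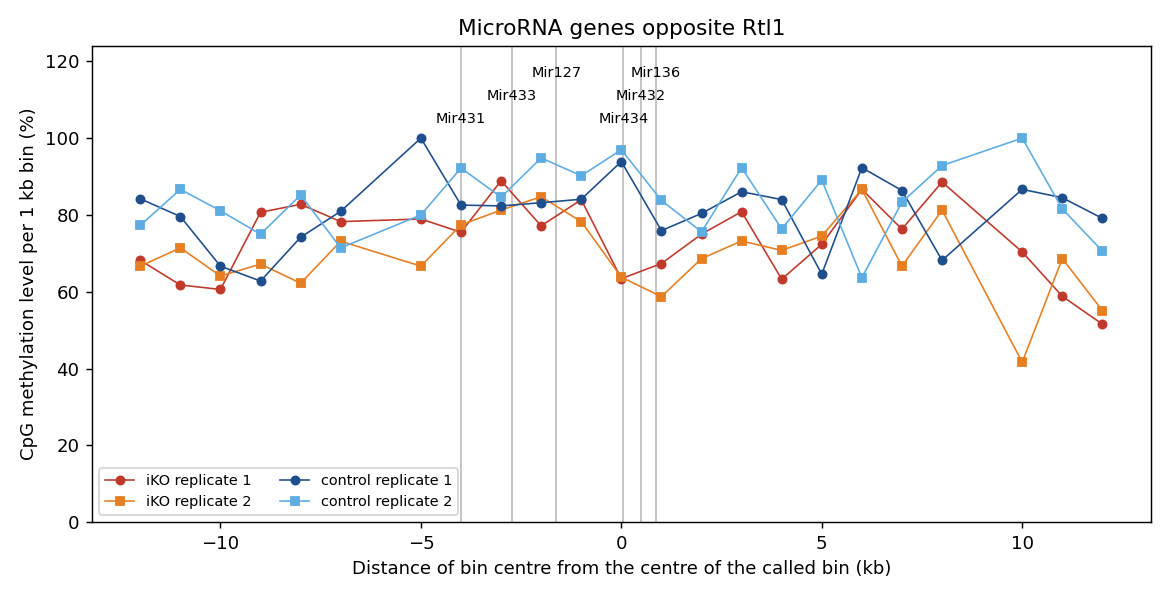
CpG methylation level (%) per 1 kb bin against distance from the centre of the called bin (kb), 1 line per library, with vertical lines at the microRNA genes opposite Rtl1. At 0 kb both iKO lines are near 63.6% and both control lines near 95.4%, while at the bins of Mir433 and Mir127 the lines of the 2 groups lie closer.

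The member windows held 49 microRNA hairpins, 47 of them on chromosome 12, and 48 had at least 10 reads in every library around them. The level was lower in iKO at 37 of the 48, with both iKO libraries below both controls at 20 and above both at 3 (median difference -7.19 points). Of all 1 kb bins, which are of about the same length, 79.4% were lower, 40.5% had both iKO libraries below both controls and 4.21% above both, so the hairpins were near the genome's shares. Mir341, in Rian, was among the 3, with 75.6%, 73.7%, 54.1% and 64.3% (15.5 points). Mir483, in Igf2, had 45.9%, 41.9%, 58.3% and 63.2% (-16.8 points), and Mir675, processed from H19, had 51.5%, 65.0%, 70.5% and 60.9% with overlap.

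For each member, the bins with the largest decrease and increase were named among those with at least 5 CpGs and 20 reads in every library. No bin named in this way had an adjusted p under 0.05 by the limma-moderated quasi-binomial model. The called bin was not the extreme of its gene. For H19 the largest decrease was in chr7:142559001-142560000, at 71.2%, 41.9%, 84.2% and 87.9% (-29.5 points), which was -14.9 points without iKO replicate 2. For Igf2 it was in chr7:142651001-142652000, at 60.9%, 48.8%, 71.4% and 77.8% (-19.8 points), and the largest increase, 7.17 points, had overlapping groups and changed sign when single libraries were left out (-1.22 to 15.6 points).

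For Dlk1 the largest increase was in chr12:109438001-109439000, at 68.4%, 64.3%, 38.6% and 38.5%, so both iKO libraries were above both controls by 27.8 points (adjusted p = 0.193, limma-moderated quasi-binomial model). The largest decrease was in chr12:109444001-109445000, at 69.4%, 71.4%, 84.1% and 92.5% (-17.9 points). A larger decrease, in chr12:109440001-109441000, fell outside the limits for naming because control replicate 1 had 19 reads, and is given after its values were seen. It had 65.4%, 57.1%, 94.7% and 89.7%, a difference of -31.0 points with the groups apart (adjusted p = 0.187, same model).

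For Rtl1 and Rian, which share these bins, the extremes that met the limits for naming were neighbours. In chr12:109610001-109611000 the levels were 51.2%, 34.5%, 68.0% and 83.3% (-32.8 points), and in the next bin, which holds Mir341, they were 78.9%, 74.5%, 51.5% and 63.2% (19.4 points). The adjusted p was 0.152 and 0.287 (same model). Since the bins were picked as the extremes of either sign, their opposite directions follow from the choice, and neither passed the test. A larger decrease, in chr12:109604001-109605000, fell outside the limits because control replicate 1 had 15 reads, and is given after its values were seen. It had 70.4%, 41.7%, 86.7% and 100%, a difference of -37.3 points with the groups apart (adjusted p = 0.157, limma-moderated quasi-binomial model).

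For Mirg the extremes were chr12:109749001-109750000 (44.2%, 24.4%, 75.0% and 55.1%, -30.7 points) and chr12:109744001-109745000 (94.4%, 84.8%, 81.0% and 64.3%, 17.0 points). For Rasgrf1 they were chr9:89893001-89894000 (54.1%, 61.0%, 86.1% and 86.1%, -28.6 points) and chr9:89926001-89927000 (92.7%, 91.8%, 69.7% and 90.5%, 12.2 points). In the last of these, control replicate 1 alone lay low, and without it the difference was 1.78 points. The increase in Mirg was 8.69 points without control replicate 2.

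In 2 kb bins, 6 of the 259 tested in the member windows were called, 2.32% against 2.05% of all 2 kb bins. Of these, 5 were lower in iKO (background 2.04%) and 1, in the H19 control region, was higher. Besides the bin of Mir434, the lower ones with the groups apart were chr12:109530001-109532000 (52.0%, 44.6%, 69.1% and 72.5%, -22.5 points) and chr12:109532001-109534000 (43.9%, 57.3%, 67.1% and 80.0%, -23.0 points) at and past the end of the IG-DMR, and chr12:109604001-109606000 at the Rtl1 start (62.8%, 60.0%, 84.9% and 88.5%, -25.3 points). Their adjusted p was 0.0418, 0.0495 and 0.0213 (limma-moderated quasi-binomial model). The sixth, chr7:142582001-142584000, had 76.7%, 28.4%, 65.8% and 86.2%, so its groups overlapped, and without iKO replicate 2 the difference was 0.70 points. Without single libraries 0 of the 6 were called, but only 1 to 32 of all 1170665 bins of 2 kb were called then, so this says nothing of these bins in particular.

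The 3 paternally marked control regions were set against the starts of 10 genes whose mark comes from the egg (Peg3, Snrpn, Mest, Plagl1, Peg10, Nnat, Grb10, Kcnq1ot1, Airn and Zrsr1). The mean of the H19, IG-DMR and Rasgrf1 regions was 54.8%, 46.8%, 50.1% and 59.0%, and the groups overlapped (-3.76 points, exact permutation p = 0.667). The mean over the maternal starts was 34.4%, 35.3%, 38.8% and 49.4%, with both iKO libraries lower (-9.20 points). The paternal minus the maternal mean was 20.4, 11.5, 11.3 and 9.63 points, a difference of 5.45 points (pooled SD 4.52, exact permutation p = 0.33). It was 1.00 to 9.89 points with single libraries left out, so the 2 kinds of region were not shown to differ. Some of these starts carry no intermediate level, such as Grb10 at 1.62% to 4.03%. RefSeq promoters taken as the germline ones of Grb10, Snrpn and Mest were also used in place of their outermost starts. Grb10 then differed by -26.6 points in place of -1.08 and Mest by -2.54 in place of -18.9. The stretch taken for Grb10 held only 17 CpGs and may miss the imprinted region. With these promoters the paternal minus maternal difference was 6.17 points (pooled SD 2.69, exact permutation p = 0.33).

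iKO minus control was 12.1 points at H19 with overlapping groups, -7.87 at the IG-DMR and -15.5 at Rasgrf1, and differences between these regions were not tested. Of the maternal starts, Airn (-32.5 points) and Zrsr1 (-28.2 points) were lowest in iKO against control. The highest was Nnat (11.1 points), with 48.7%, 41.1%, 21.7% and 45.8%, where the groups overlapped and control replicate 1 alone lay low. By whole windows, 9 of the 10 maternal genes had an adjusted p under 0.05 (limma-moderated quasi-binomial model), 1 of them, Zrsr1 (-12.1 points), was called, and the median difference was -7.86 points. The shares of all gene windows were 61.7% and 14.4%, and their median -7.67 points.

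The 10 neighbours of the clusters (Ins2, Th, Mrpl23, Lsp1, Begain, Wdr25, Dio3, Ctsh, Ankrd34c and Mir184) had a median window difference of -7.73 points. All 10 were lower in iKO, as were 99.4% of all gene windows. An adjusted p under 0.05 by the same model was found for 6, against 61.7%, and 1 was called, against 14.4%. The called window was that of Th, tyrosine hydroxylase, at 63.3%, 63.2%, 72.8% and 75.4% (-10.9 points, adjusted p = 0.0106, limma-moderated quasi-binomial). Dio3, the deiodinase gene at the far end of the chromosome 12 cluster, had 50.5%, 41.6%, 45.9% and 49.0% with overlapping groups (-1.39 points). Ins2, the insulin gene next to Igf2 whose window overlaps that of Igf2, had -3.04 points.

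The 7 genes that keep imprints (Zfp57, Trim28, Dnmt1, Uhrf1, Dppa3, Ctcf and Zfp445) were all lower in iKO with the groups apart, with a median of -7.20 points, and 6 had an adjusted p under 0.05 (limma-moderated quasi-binomial). Of all gene windows, 92.4% were lower with the groups apart and 61.7% had an adjusted p under 0.05, with a median of -7.67 points. The windows of Dnmt1, the maintenance methyltransferase (44.2%, 46.0%, 57.1% and 55.9%, -11.3 points), and Zfp57 (29.3%, 27.3%, 38.8% and 38.8%, -10.5 points) were called, against 14.4% of all windows. These are levels of methylation around the genes, and their expression was not measured in these libraries.

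The windows most like that of H19 by the distance over the 4 library levels were those of Cdkl4 (0.465 points) and Gm33724 (0.691 points). For Meg3 they were Gm36745 (0.753 points) and Prelp (0.766 points). With 4 values and 49190 windows, such close matches describe how common the pattern was.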

How the data were processed

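The deposited tables give, per the file headers, methylated and all C or T read counts per CpG of mm10, with both strands of a CpG merged. Per the file headers they also hold the authors' expected count (depth corrected with the opposite strand for C/T variants), used here as an alternative, and the authors' methylation level as a fraction, which was not used. The submitters' processing notes name BSMAP and Picard, and versions and filters are not given in the sources used here. Each table was matched to a sample by the group and replicate in its name.

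The 8 members and all gene lists were chosen with earlier results of these data known. Reads were pooled per library over gene windows, 1 kb bins and regions in Python 3.11.15 with NumPy 2.4.6, pandas 2.3.3 and PyArrow 21.0.0, so deeper CpGs weigh more. A quasi-binomial logistic model per bin or window, with group as its term, was fitted in R 4.3.3. Its dispersion, moderated by limma 3.58.1, was not allowed below 1, an F test followed, and p was adjusted by Benjamini-Hochberg over all bins or windows. A call needed an adjusted p under 0.05 and at least 10 points. limma gave every gene window the same dispersion, so a window whose replicates differ strongly can still pass. Region levels were compared by two-sided exact permutation over 6 arrangements in Python, and Wilson intervals came from SciPy 1.17.1. Named were all members, all regions, all called member bins and each member's extreme bins with at least 5 CpGs and 20 reads. Gene and sequence positions came from RefSeq (GRCm38.p6). The model was tested on simulated data: of 200 gene windows lowered by 20 points 100% were called, and of 200 1 kb bins lowered by 50 points 4.5%, each with 0 false calls. Apart from these changes, every feature was simulated at 1 level in all libraries, with counting error alone. The simulation held no further spread between replicates and no genome-wide shift, so these shares do not give the power or error in the real data. Lambda DNA was not analysed here.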

Additional observations from a re-analysis of the deposited data

How the results depend on the processing

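In every alternative with values, the decrease kept its direction in the windows of H19, Dlk1, Meg3, Rtl1, Rian, Mirg and Rasgrf1, and only Igf2 changed sign (-8.33 to 1.90 points with single libraries left out). The number of member windows called, 0, became 1 with 10 kb flanks (7845 of all 49114 windows), 1 over gene bodies only (12.1% of all) and 7 by adjusted p alone (61.7%), and was 0 to 3 with single libraries left out (5.43% to 39.5%). The 7 windows with an adjusted p under 0.05 became 5 by limma on logit levels (68.9% of all windows), 4 with a replicate block (34.7%) and 3 over gene bodies only (31.1%). They became 0 against the genome-wide median difference (0.232%) and 1 to 8 with single libraries left out (14.2% to 75.6%). By limma this count fell while the share of all windows rose from 61.7%. In the other settings just listed for this count, it moved in the same direction as the share of all windows. With 50 kb flanks the count stayed at 7 while the share rose to 82.8%. It also stayed at 7 when CpGs missed by any library were dropped, with a share of 65.3%. The 1 called 1 kb bin became 0 over CpGs with at least 1 or at least 5 reads in every library, with thinned reads, in 500 bp bins, with at least 20 reads or no minimum, by limma on logit levels and with a replicate block, and 0 to 0 with single libraries left out. It became 2 with 50 kb flanks (676 bins tested in place of 446), 2 against the genome-wide median difference and 6 in 2 kb bins. Over CpGs with at least 5 reads only 2 member bins could be tested. In that setting 0 of 22998 bins of the genome were called, so it says nothing of the called bin. With limma, the block, no read minimum, 500 bp bins or a library left out, 0 bins of the whole genome were called, though 178327 had an unadjusted p under 0.05 with limma. The 6 called 2 kb bins became 0 by limma (0% of all 2 kb bins), 1 against the median (0.140%), 3 with a replicate block (1.22%) and 0 to 0 with single libraries left out. At the Rasgrf1 upstream region -15.5 points became -18.9 as an unweighted mean, -17.4 and -12.0 over CpGs with at least 1 and 5 reads, and -15.9 thinned, and -10.1 points against the window became -13.9 unweighted and -0.33 over CpGs with at least 5 reads. The cause of these changes was not tested. Gene bodies, the median comparison, the promoters taken as germline for maternal genes and the settings for 2 kb bins were added after the data were seen.

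Replicate numbers did not pair the samples: deviations of same-numbered libraries correlated at -0.01 over 1 kb bins and -0.06 over gene windows. Most regions could not be computed over CpGs with at least 5 reads in every library. At about 4 reads per CpG, single 1 kb bins rest on few reads, so most differences within a bin were not detectable. Fits without a library take the spread of its group from the other group.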
